A study of Mus musculus with 12 samples.

Results

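The cation-chloride cotransporters described here are 4 genes, Slc12a2, Slc12a4, Slc12a5 and Slc12a7, of 12393 named genes on the array. All probe sets carrying one of these symbols were taken, which gave 8 of 22626 probe sets. Each member had at least 1: Slc12a2 had 3, Slc12a5 and Slc12a7 had 2 each, and Slc12a4 had 1. The genes were picked as a family with a result known: Slc12a2 had been seen to be lower in SMA vehicle than in wildtype cords, against the trend of other genes of the immature nervous system. Its values are therefore given as a description with no test, and so are those of the other members in that comparison.

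Spinal cord RNA in 12 samples from mice aged 13 days was measured, 1 array per sample and 4 per group. The first group were SMA mice given ceftriaxone, a beta-lactam antibiotic, by daily intraperitoneal injection of 200 mg/kg from day 5, with the genotype SMN2+/+;SmnΔ7+/+;mSmn -/-. The second group were SMA mice of the same genotype given vehicle, which one label field calls untreated. The third group, called wildtype in the labels, were vehicle mice of the genotype SMN2+/+;SmnΔ7+/+;mSmn+/−, so they too carried the human SMN2 transgenes and kept only a single intact mouse Smn allele. All were of line 4299 on the FVB background, which carries the transgenes Tg(SMN2*delta7)4299Ahmb and Tg(SMN2)89Ahmb with the targeted allele Smn1tm1Msd. It models severe spinal muscular atrophy, a motor neuron disease that follows from too little SMN protein. The labels mention both whole cords and lumbar segments of mice perfused with fixative, and do not settle which was used. The values are MAS5 signals, the brightness of a probe set on a linear scale after the submitters had scaled each array.

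These transporters move chloride together with cations and so set the chloride level inside a cell. Slc12a2 encodes NKCC1, which carries chloride inward with sodium and potassium. Slc12a4, Slc12a5 and Slc12a7 encode the potassium-chloride cotransporters KCC1, KCC2 and KCC4, which carry chloride outward. In neurons, where KCC2 is largely restricted, the balance of NKCC1 and KCC2 decides whether GABA and glycine excite or inhibit: immature neurons hold much chloride, and the rise of KCC2 during development lowers it. NKCC1 is also made by glia, including the oligodendrocyte lineage, by endothelium and by secretory epithelia, and KCC1 and KCC4 serve volume control in many cell types.

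The upstream sequences of the potassium-chloride cotransporters whose signals the results turn on are shown first, because RefSeq gives Slc12a5 2 starts and the array signals cannot be assigned to either. Each window is the 250 bases before an annotated start, 5′ to 3′ on the gene's strand, from RefSeq (GRCm38.p6). Capitals mark the motif CACGTG, the palindromic E-box bound by the factors USF1 and USF2.
Slc12a5, upstream start, chr2:164960596-164960845, plus strand: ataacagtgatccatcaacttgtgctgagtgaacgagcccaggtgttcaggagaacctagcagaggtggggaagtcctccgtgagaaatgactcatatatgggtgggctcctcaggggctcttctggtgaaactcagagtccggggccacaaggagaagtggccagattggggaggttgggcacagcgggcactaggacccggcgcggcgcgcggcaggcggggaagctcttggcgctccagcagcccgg
Slc12a5, downstream start, chr2:164967738-164967987, plus strand: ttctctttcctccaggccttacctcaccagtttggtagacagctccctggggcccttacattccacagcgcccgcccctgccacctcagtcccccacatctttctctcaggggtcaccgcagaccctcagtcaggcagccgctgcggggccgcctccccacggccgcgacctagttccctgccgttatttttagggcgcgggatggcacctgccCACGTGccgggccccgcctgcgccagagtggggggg
Slc12a4, chr8:105966116-105966365, minus strand: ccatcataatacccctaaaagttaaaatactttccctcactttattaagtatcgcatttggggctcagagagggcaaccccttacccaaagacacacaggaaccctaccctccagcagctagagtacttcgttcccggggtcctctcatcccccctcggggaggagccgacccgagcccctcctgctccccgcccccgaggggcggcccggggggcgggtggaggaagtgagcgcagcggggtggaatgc
The starts of Slc12a5 lie 7142 bases apart, and the downstream window lies inside the annotated gene. That window holds 1 CACGTG, which begins 36 bases before the start. The upstream window holds 0, as does that of Slc12a4, which in part overlaps the annotated Slc12a4 gene. Of the 2 overlapping windows of Slc12a7, not shown and inside the annotated gene, 1 also holds 1 CACGTG, which begins 38 bases before its start. A match of these letters was found in 6.02% of 32851 such windows of all genes, searched on both strands, and a match is a description of the sequence, not a site. Of the factors, Usf2 was measured and had differences of -0.16 ± 0.09 (log2, SE) between SMA vehicle and wildtype cords (limma adjusted p = 0.178) and 0.11 ± 0.09 between SMA ceftriaxone and SMA vehicle cords (0.375).

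Several facts of the arrays bear on what follows. Smn1, the targeted gene, had a mean signal of 7.28 ± 5.85 in SMA ceftriaxone, 4.23 ± 0.991 in SMA vehicle and 313 ± 70.1 in wildtype cords (SD, n = 4). Every array thus matched its label as to the presence or loss of mouse Smn1 signal. This signal does not show how many intact alleles a wildtype mouse carried, nor the transgenes. Wildtype array 2 carried genes of the thymus: the summed signal of 10 thymus and T cell genes was 38370 there, against 120 to 532 on the SMA ceftriaxone arrays, 84.5 to 139 on the SMA vehicle arrays and 158 to 295 on the other wildtype arrays. Its log2 signals correlated with those of the remaining wildtype arrays at 0.924 to 0.930 over 13575 probe sets, and those among themselves at 0.986 to 0.989. Xist, a marker of female mice, had a signal above 1000 on 4 of 4 SMA ceftriaxone, 2 of 4 SMA vehicle and 1 of 4 wildtype arrays, and the labels give no sex. The ratio of 3′ to 5′ Gapdh signal, a check of RNA integrity, lay between 0.720 and 0.756 on SMA ceftriaxone, 0.733 and 0.757 on SMA vehicle, and 0.745 and 0.761 on wildtype arrays.

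The filter on low signals kept 6 of the 8 member probe sets, all 3 of Slc12a2, both of Slc12a5 and that of Slc12a4. Both probe sets of Slc12a7 fell below it, at percentiles 31.8 and 29.1 of mean signal, so 3 of the 4 genes were measured above the filter. A signal of one probe set was not set against that of another, since probe sets differ in how brightly they hybridise.

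Slc12a2, the inward carrier NKCC1, is on chromosome 18 by the RefSeq annotation. It had a mean signal in SMA vehicle cords that was 0.328 to 0.352 times the wildtype mean, while in SMA ceftriaxone cords it lay close to the wildtype mean. The brightest of its 3 probe sets had signals of 4157, 4755, 4140 and 4360 on the SMA ceftriaxone arrays, 2093, 1759, 1295 and 1183 on the SMA vehicle arrays, and 4541, 2986, 5458 and 4985 on the wildtype arrays. Every SMA vehicle array lay below every array of both other groups, and the ceftriaxone arrays lay within the wildtype range. That range reached down through array 2 of that group, which carried the thymus genes: 3 of the 4 ceftriaxone arrays lay below the other wildtype arrays.

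The second probe set of Slc12a2 by brightness had 1045, 1518, 1320 and 1451 in SMA ceftriaxone, 585, 510, 359 and 390.0 in SMA vehicle, and 1553, 963, 1352 and 1492 in wildtype cords. The third had 500.3, 699, 531 and 720 in SMA ceftriaxone, 244, 224, 141 and 174 in SMA vehicle, and 690, 458, 626 and 614 in wildtype cords. In all 3 probe sets the SMA vehicle arrays were lowest without overlap. How many of all probe sets separate in this way was not counted. Since 47.2% of them were called in SMA vehicle against wildtype cords, nothing is read from a lack of overlap, here or for the genes below. The 3 Slc12a2 probe sets also ordered the arrays alike. Over the 12 arrays their log2 signals correlated at 0.974 to 0.993, and their deviations from the group means at 0.784 to 0.938. The platform annotation gives all 3 the same accession, and they are not independent measurements.

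As group means, the brightest probe set had 4353 ± 286 in SMA ceftriaxone, 1582 ± 422 in SMA vehicle and 4492 ± 1072 in wildtype cords (SD, n = 4). On the scale of log2(signal + 16), the differences of SMA vehicle from wildtype cords were -1.50 ± 0.19, -1.51 ± 0.18 and -1.55 ± 0.18 (SE). The differences of SMA ceftriaxone from SMA vehicle cords were 1.49 ± 0.19, 1.51 ± 0.18 and 1.58 ± 0.18, and both sets share the vehicle arrays. Between SMA ceftriaxone and wildtype cords the differences were -0.01, 0.003 and 0.03. Without wildtype array 2, the difference of SMA vehicle from wildtype cords was -1.68 by the brightest probe set, and that of SMA ceftriaxone from wildtype cords was -0.20.

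**Figure D1:**
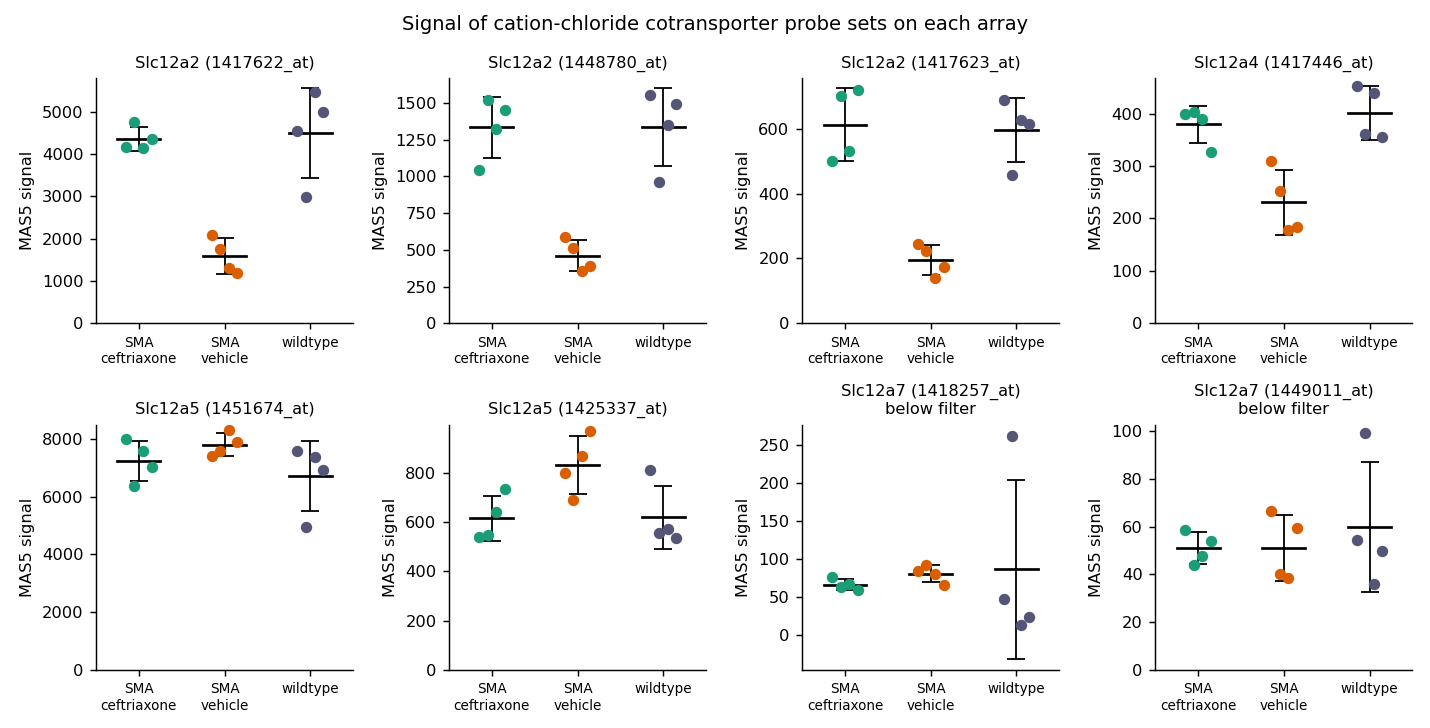
MAS5 signal (linear axis) of the 8 cation-chloride cotransporter probe sets on every array, with SMA ceftriaxone, SMA vehicle and wildtype from left to right; points are arrays, the line is the group mean and bars are the SD (n = 4). The SMA vehicle arrays are lowest in all 3 Slc12a2 panels and in the Slc12a4 panel, and 1 wildtype array stands far above the rest in the brighter Slc12a7 probe set (261.9).

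Slc12a4, which encodes KCC1, the broadly expressed outward carrier, was also lowest in SMA vehicle cords. Its probe set had signals of 399, 404, 390 and 328 in SMA ceftriaxone, 310.1, 252, 179 and 184 in SMA vehicle, and 453, 360.4, 439 and 355 in wildtype cords. All SMA vehicle arrays lay below all others, by a small margin in 1 case (310.1 against 328 in the lowest SMA ceftriaxone array). The group means were 380 ± 35.4 in SMA ceftriaxone, 231 ± 62.2 in SMA vehicle and 402 ± 51.2 in wildtype cords (SD, n = 4). The difference of SMA vehicle from wildtype cords was -0.78 ± 0.16 (log2, SE), smaller than each of the 3 Slc12a2 differences.

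Slc12a4 rose by 0.71 ± 0.16 (log2, SE) in SMA ceftriaxone against SMA vehicle cords (95% interval 0.36 to 1.05; limma adjusted p = 0.00407), a ratio of means of 1.64. That call held in all 22 alternatives that could be computed, with adjusted p between 0.000603 and 0.0246. The highest came from the fit with Xist signal as a covariate, where the difference was 0.62. Against wildtype cords, SMA ceftriaxone cords had a difference of -0.07 with an interval of -0.42 to 0.27 (adjusted p = 0.849).

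Slc12a5, the neuronal outward carrier KCC2, did not share the low signal of SMA vehicle cords. Its brighter probe set had 7984, 6374, 7586 and 7038 in SMA ceftriaxone, 7395, 7594, 8319 and 7894 in SMA vehicle, and 7584, 4933, 7386 and 6914 in wildtype cords. The groups overlapped, and the single low value was again wildtype array 2. Means were 7245 ± 699 in SMA ceftriaxone, 7800 ± 402 in SMA vehicle and 6704 ± 1214 in wildtype cords (SD, n = 4). The difference of SMA vehicle from wildtype cords was 0.24 ± 0.12 (log2, SE), and 0.10 without wildtype array 2. SMA ceftriaxone cords differed from SMA vehicle cords by -0.11 (95% interval -0.37 to 0.15; limma adjusted p = 0.505) and from wildtype cords by 0.13 (-0.13 to 0.39; adjusted p = 0.606).

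The dimmer Slc12a5 probe set behaved differently. It had 541, 548, 643 and 733 in SMA ceftriaxone, 802, 689, 869 and 971 in SMA vehicle, and 812, 557, 573 and 534 in wildtype cords. SMA vehicle cords were highest on average, though 1 array of each other group reached into their range. The difference of SMA vehicle from wildtype cords was 0.43 ± 0.15 (log2, SE). In SMA ceftriaxone against SMA vehicle cords it fell by 0.43 ± 0.15 (95% interval -0.74 to -0.11; limma adjusted p = 0.0384), and leaving out any of 3 SMA vehicle arrays (1, 3 or 4) or 3 SMA ceftriaxone arrays (1, 2 or 3) ended that call (adjusted p 0.0577 to 0.118), as did no filter (0.0572) and Xist as a covariate (0.0745). SMA ceftriaxone and wildtype cords differed by 0.002 (-0.32 to 0.32; adjusted p = 0.995). The log2 signals of the pair of probe sets correlated at only 0.508 over the 12 arrays, so the array gives no single answer for Slc12a5. Both carry the same accession, and the sources used here do not say which of its transcripts each probe set reads.

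Slc12a7, which encodes KCC4 and lies on chromosome 13, was dim. Its brighter probe set gave 77.0, 63.9, 67.2 and 59.3 in SMA ceftriaxone, 85.2, 92.8, 80.8 and 66.6 in SMA vehicle, and 47.7, 261.9, 14.3 and 24.2 in wildtype cords. Leaving aside wildtype array 2, which had the highest value of all, both SMA groups lay above the wildtype arrays. With all arrays the difference of SMA ceftriaxone from wildtype cords was 0.28 (95% interval -0.83 to 1.39; adjusted p = 0.847 over all probe sets), and without wildtype array 2 it was 0.95 (limma adjusted p = 0.0328). SMA vehicle cords differed from wildtype cords by 0.51 ± 0.51 (log2, SE) with that array and by 1.18 without it. The dimmer probe set had 58.6, 43.8, 47.7 and 54.0 in SMA ceftriaxone, 66.5, 40.3, 38.7 and 59.4 in SMA vehicle, and 54.5, 99.4, 36.1 and 49.7 in wildtype cords, and its groups overlapped with and without wildtype array 2. Without that array it differed by 0.10 between SMA ceftriaxone and wildtype cords (adjusted p = 0.829), so the 2 probe sets of Slc12a7 disagree, and no difference is called for the gene.

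**Figure D2:**
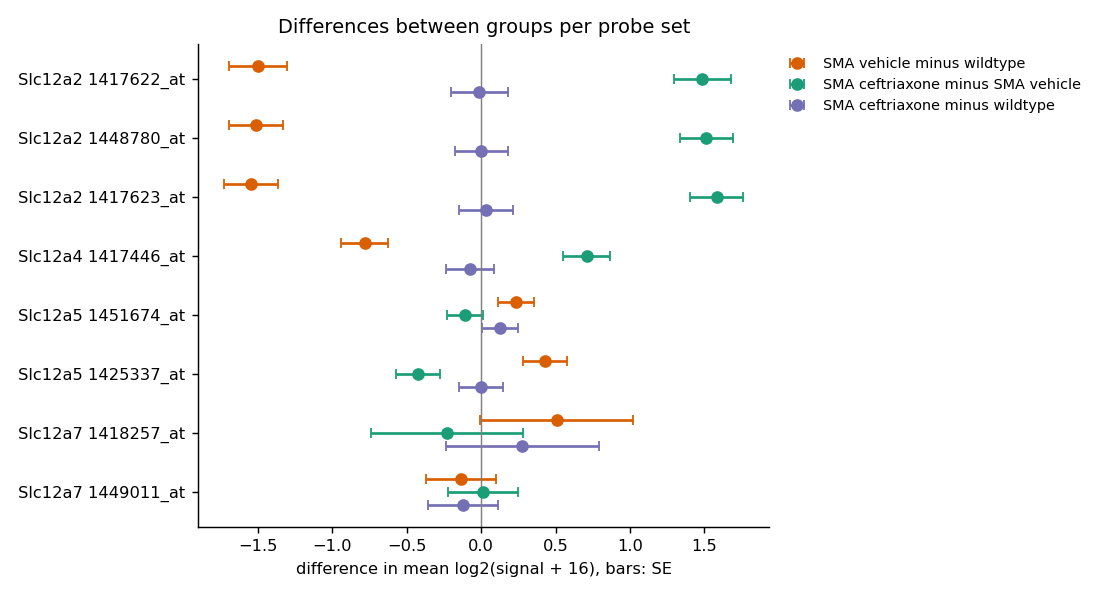
Differences between group means of log2(signal + 16) for the 8 probe sets, with bars of 1 SE. The 3 Slc12a2 probe sets and Slc12a4 lie below 0 for SMA vehicle minus wildtype and above 0 for SMA ceftriaxone minus SMA vehicle, while the SMA ceftriaxone minus wildtype points of these probe sets lie between -0.07 and 0.03.

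For SMA vehicle against wildtype cords, calls were not counted over the 6 probe sets above the filter, since Slc12a2 was chosen on that comparison. Over all 13575 probe sets, 47.2% passed limma's adjusted p under 0.05 there, 22.3% as lower and 24.9% as higher. For SMA ceftriaxone against SMA vehicle cords, the 3 probe sets of Slc12a2 are left untested, since the vehicle arrays are those on which it was chosen. Of the other 3, 1 rose (Slc12a4), 1 fell (the dimmer Slc12a5) and 1 did not pass, where 35.9% of all probe sets were called, 18.3% as higher and 17.7% as lower. In SMA ceftriaxone against wildtype cords 0 of these 3 reached limma's threshold, and 0 had an unadjusted p under 0.05, where 4.21% of all probe sets were called, 3.29% as higher and 0.928% as lower.

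Differences between members were also taken within each array. The log2 signal of the brightest Slc12a2 probe set minus that of the brighter Slc12a5 probe set, with the wildtype mean set to 0, was -0.35, 0.17, -0.28 and -0.10 in SMA ceftriaxone cords, -1.22, -1.51, -2.08 and -2.13 in SMA vehicle cords, and -0.15, -0.13, 0.16 and 0.12 in wildtype cords. All 4 SMA vehicle arrays lay below every other array, and wildtype array 2 lay among the other wildtype arrays. The means were -0.14 ± 0.23 in SMA ceftriaxone and -1.74 ± 0.44 in SMA vehicle cords (SD, n = 4), beside an SD of 0.16 in wildtype cords. For Slc12a4 minus Slc12a5 they were -0.20 ± 0.19 in SMA ceftriaxone and -1.02 ± 0.42 in SMA vehicle cords, with an SD of 0.21 in wildtype cords. Slc12a2 was further down than Slc12a4 on each SMA vehicle array: the within-array difference of these genes was -0.71, -0.68, -0.65 and -0.82 there, against -0.07 to 0.27 in SMA ceftriaxone and -0.41 to 0.35 in wildtype cords. Wildtype array 2 was the lowest wildtype array in this difference (-0.41) and the highest in that of Slc12a4 from Slc12a5 (0.28). These values rest on the arrays on which Slc12a2 was chosen, and carry no test.

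**Figure D3:**
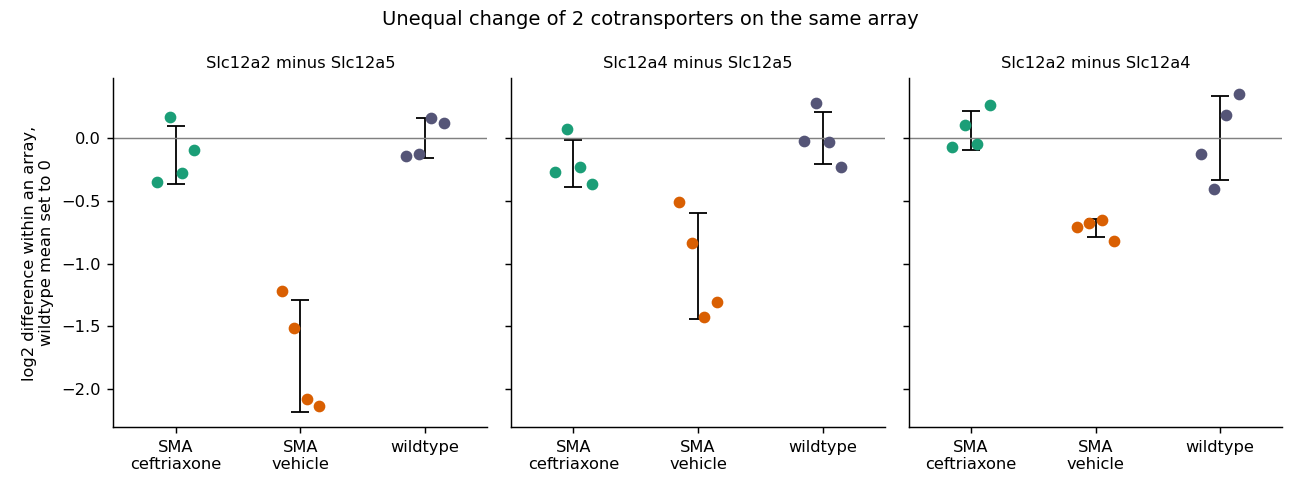
Log2 differences between 2 cotransporters on the same array, with the wildtype mean set to 0; points are arrays, bars are the mean ± SD (n = 4). The SMA vehicle arrays are lowest in each panel, at -1.22 to -2.13 for Slc12a2 minus Slc12a5.

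Markers of several cell types moved in the same comparisons. Over all probe sets, 22.3% were called as lower in SMA vehicle against wildtype cords and 24.9% as higher. In SMA ceftriaxone against SMA vehicle cords, 18.3% of all probe sets were called as higher and 17.7% as lower. The summed signal of 14 myelin and mature oligodendrocyte genes was 127400 to 139900 in SMA ceftriaxone, 28160 to 62570 in SMA vehicle and 110900 to 182300 in wildtype cords. All 14 fell in SMA vehicle against wildtype cords (limma adjusted p under 0.05 for each, median -2.60) and all 14 rose in SMA ceftriaxone against SMA vehicle cords (median 2.18). Klk6, an oligodendrocyte protease, had the lowest signal of the list at 5.8 in SMA vehicle cords, while Mog, a myelin glycoprotein, had a lowest signal of 177 there. Of 8 oligodendrocyte precursor and lineage genes, 5 fell and 2 rose in SMA vehicle against wildtype cords, with summed signals of 20450 to 22690 in SMA ceftriaxone, 12050 to 15460 in SMA vehicle and 14260 to 21810 in wildtype cords. Sox10, the lineage transcription factor, fell by 1.18 and Olig2 by 0.99, while the precursor receptor gene Pdgfra had mean signals of 2728 ± 367 in SMA ceftriaxone, 2419 ± 157 in SMA vehicle and 1769 ± 215 in wildtype cords.

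On the SMA vehicle arrays, the pair with the lower myelin sums (arrays 3 and 4, at 35820 and 28160) also had the lower Slc12a2 and Slc12a4 signals, whereas Slc12a5 by its brighter probe set had its highest SMA vehicle signals on these arrays. Among wildtype arrays, array 2 was lowest in the myelin sum, in Slc12a2 and in the brighter Slc12a5 probe set, but also in the neuronal (61970) and astrocyte (42530) sums. The lowest wildtype signal of Slc12a4 was on array 4 (355), which had a myelin sum of 177400. Signal from a whole tissue does not tell fewer cells of a type from less RNA per cell, and the part of cell composition in the Slc12a2 and Slc12a4 values was not tested.

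**Figure D4:**
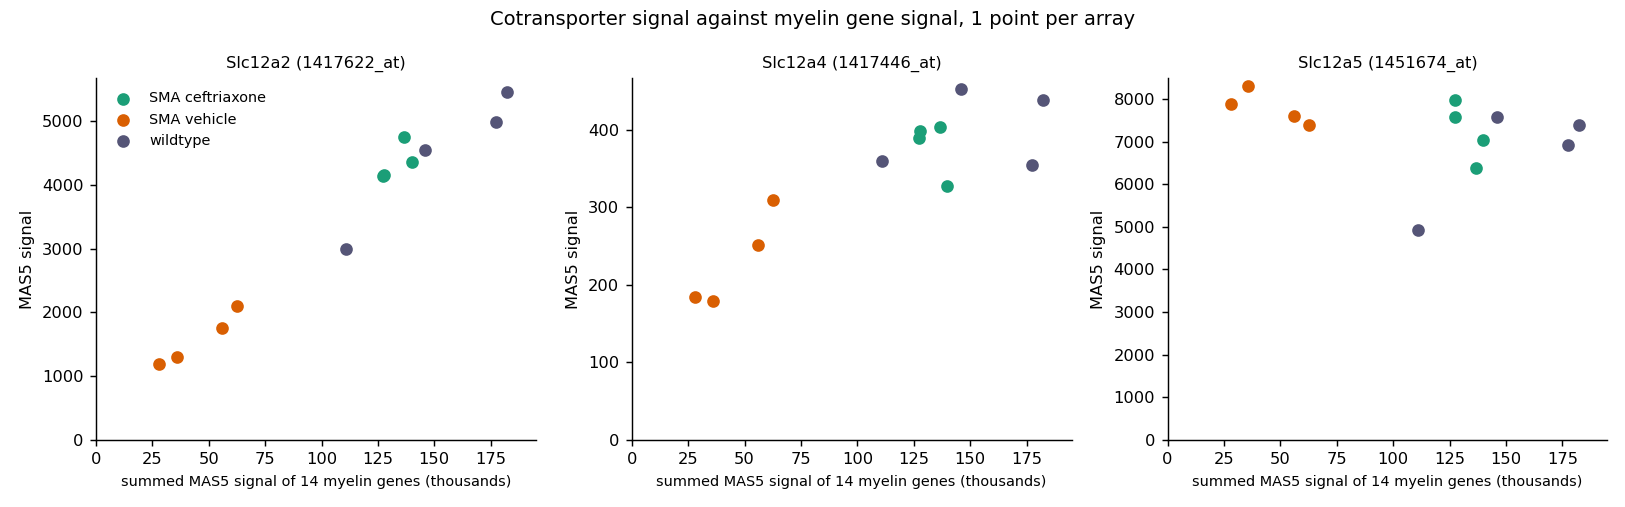
MAS5 signal of Slc12a2, Slc12a4 and Slc12a5 (vertical axes) against the summed MAS5 signal of 14 myelin genes, divided by 1000 (horizontal axes), 1 point per array. SMA vehicle arrays lie at the low end of the myelin sum (28160 to 62570), where Slc12a2 and Slc12a4 are low and Slc12a5 is not.

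Markers of other cell types also moved. The shares called over all probe sets in SMA vehicle against wildtype cords are again 22.3% as lower and 24.9% as higher. Of 11 endothelial and pericyte genes, 7 fell and 0 rose in SMA vehicle against wildtype cords (limma; 10 and 0 at an unadjusted p under 0.05), with signals summed over 12 genes of 7190 to 9438 in SMA ceftriaxone, 4846 to 6556 in SMA vehicle and 7587 to 9937 in wildtype cords. Of 12 astrocyte genes, 5 fell and 3 rose, with sums of 61310 to 67320 in SMA ceftriaxone, 40170 to 46000 in SMA vehicle and 42530 to 66200 in wildtype cords. Of 16 neuronal genes, 8 rose and 4 fell, and their sums over 17 genes overlapped between groups (75320 to 84080 in SMA ceftriaxone, 75490 to 81980 in SMA vehicle and 61970 to 92390 in wildtype cords). Of 11 microglial genes, 7 fell, and the sums over 12 genes were 8009 to 10330 in SMA ceftriaxone, 6091 to 7254 in SMA vehicle and 7963 to 11360 in wildtype cords. Of the choroid plexus and ependymal genes only 2 were above the filter, of which 1 rose and 0 fell in SMA vehicle against wildtype cords. The sums over 6 genes, most of them below the filter, were 497 to 557 in SMA ceftriaxone, 691 to 951 in SMA vehicle and 466 to 499.5 in wildtype cords. The choroid plexus marker Ttr was as low as 2.1 in SMA ceftriaxone cords. Of 4 skeletal muscle genes above the filter, 3 rose and 1, Pvalb, fell (-2.60) in SMA vehicle against wildtype cords. The sums over 12 genes of that list, Pvalb included, were 783 to 1688 in SMA ceftriaxone, 3134 to 6761 in SMA vehicle and 1575 to 3595 in wildtype cords.

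Genes of the immature nervous system went the other way, which was known when Slc12a2 was chosen and is given as a description. Over 19 measured genes the median difference was 1.10 (log2) for SMA vehicle against wildtype cords and -1.03 for SMA ceftriaxone against SMA vehicle cords. Dcx, a microtubule protein of migrating neurons, averaged 482 ± 61.3 in SMA ceftriaxone, 2170 ± 853 in SMA vehicle and 342 ± 44.3 in wildtype cords (SD, n = 4). Crmp1, a mediator of axon guidance, averaged 3869 ± 626 in SMA ceftriaxone, 9829 ± 809 in SMA vehicle and 1917 ± 433 in wildtype cords. In SMA ceftriaxone against wildtype cords 3.29% of all probe sets passed limma's test as higher. Of the 19 genes 6 did so, Crmp1 among them (1.02, limma adjusted p = 0.00389). The count was 3 without SMA ceftriaxone array 3, 3 with only these groups fitted and 2 with Xist as a covariate, while the 3 Slc12a2 probe sets had differences of -0.01 to 0.03 there.

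The genes whose log2 signals followed each cotransporter most closely over the 12 arrays differed between members, and these correlations describe arrays that also share group, dissection and scaling. For Slc12a2 by its brightest probe set they were Clu (Pearson r = 0.997), which encodes clusterin, Cnp (0.996), a myelin enzyme, Rassf8 (0.994), Slc44a1 (0.992), a choline transporter, and Chn2 (0.992). For Slc12a4 they were Plxnb3 (0.979), a semaphorin receptor of oligodendrocytes, Sox10 (0.966), Vsir (0.965), Adamts4 (0.963), a protease of oligodendrocytes, and Tmem63a (0.962). Without wildtype array 2 these values were 0.963 to 0.998. With the group means removed, deviations correlated at 0.947 to 0.979 for the Slc12a2 genes and 0.855 to 0.934 for the Slc12a4 genes. The values over the 12 arrays include the difference between groups on which Slc12a2 was chosen, which many genes share. All these genes were picked for their high r on the same arrays.

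For Slc12a5 by its brighter probe set the closest were Mtmr9 (0.951), Chga (0.949), a protein of secretory granules, Tsc22d1 (0.949), Adcy8 (0.947), an adenylyl cyclase, and Pdha1 (0.945). Without wildtype array 2 the value was 0.931 for Adcy8 and 0.777 to 0.804 for the others, so the likeness of those depended on that array. For Slc12a7 by its brighter probe set they were Rasa1 (0.981), Srsf11 (0.961), Nop9 (0.948), Lmnb1 (0.943) and Snrpb (0.942), and 0.880 to 0.966 without that array.

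The WNK and SPAK kinases switch these transporters, raising NKCC1 activity and lowering that of the potassium-chloride carriers by phosphorylation. Of 10 measured genes of the pathway, 2 rose and 3 fell in SMA vehicle against wildtype cords, and 3 rose and 2 fell in SMA ceftriaxone against SMA vehicle cords. That is 5 of 10 in each comparison, where 47.2% and 35.9% of all probe sets were called, so the counts are no result about the list. The median differences were 0.02 and -0.05. Wnk1, a chloride-sensing kinase, had signals of 5485, 5299, 4932 and 4430.4 in SMA ceftriaxone, 3918, 3547, 3291 and 3282 in SMA vehicle, and 6105, 5386, 6492 and 6760.4 in wildtype cords. SMA vehicle cords were lowest without overlap. Wnk1 fell by 0.81 ± 0.09 (log2, SE) in SMA vehicle against wildtype cords (limma adjusted p = 1.52e-05) and rose by 0.52 in SMA ceftriaxone against SMA vehicle cords (0.000898).

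Its relative Wnk2, which is expressed in neurons, was opposite. It had 520.4, 547, 494 and 631 in SMA ceftriaxone, 791, 764, 840.1 and 797 in SMA vehicle, and 529, 312, 422 and 457 in wildtype cords. SMA vehicle cords were highest without overlap, with a rise of 0.89 ± 0.13 over wildtype cords (limma adjusted p = 0.000134) and a fall in SMA ceftriaxone against SMA vehicle cords (-0.53, 0.00745). Klhl2, an adaptor that targets WNK kinases for degradation, averaged 2693 ± 135 in SMA ceftriaxone, 1231 ± 182 in SMA vehicle and 2933 ± 669 in wildtype cords, a fall of 1.23 in SMA vehicle against wildtype cords (2.28e-05). The kinases that act on the transporters directly did not pass: Stk39 (SPAK) had -0.15 in SMA vehicle against wildtype cords (adjusted p = 0.415) and 0.08 in SMA ceftriaxone against SMA vehicle cords (0.701), and Oxsr1 (OSR1) had 0.11 (0.608) and -0.17 (0.437). In SMA ceftriaxone against wildtype cords 0 of 10 passed limma's test, with 2 higher and 1 lower at an unadjusted p under 0.05. Over all probe sets 4.21% passed there.

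Among 8 measured partners and regulators of KCC2, 3 rose and 2 fell in SMA vehicle against wildtype cords, and 2 rose and 0 fell in SMA ceftriaxone against SMA vehicle cords (limma; 2 and 1 unadjusted). The 2 that fell were 0 to 2, and the 2 that rose under ceftriaxone 1 to 2, with 1 array left out; these counts held in 10 and 11 of 23 alternatives. Over all probe sets, 47.2% were called in SMA vehicle against wildtype cords and 35.9% in SMA ceftriaxone against SMA vehicle cords. The counts over the 8 genes are therefore no result about the list. Arhgef7, which encodes the beta-PIX exchange factor, averaged 1438 ± 112 in SMA ceftriaxone, 1615 ± 82.6 in SMA vehicle and 1041 ± 185 in wildtype cords. It rose by 0.64 ± 0.12 in SMA vehicle against wildtype cords (adjusted p = 0.000535) and by 0.48 ± 0.12 in SMA ceftriaxone against wildtype cords (0.0377), a call that only 9 of 23 alternatives kept (adjusted p up to 0.243). Pacsin1, an endocytic adaptor, averaged 2125 ± 106 in SMA ceftriaxone, 1452 ± 174 in SMA vehicle and 2061 ± 449 in wildtype cords, and rose by 0.55 in SMA ceftriaxone against SMA vehicle cords (0.0094). Bdnf, the neurotrophin, rose by 0.64 in SMA vehicle against wildtype cords (0.00549), and Grik2, a kainate receptor subunit, by 0.46 (0.0219; 0.0671 without SMA vehicle array 4).

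Of 16 measured chloride channels and anion exchangers, 3 rose and 4 fell in SMA vehicle against wildtype cords, and 7 rose and 2 fell in SMA ceftriaxone against SMA vehicle cords, beside the shares of 47.2% and 35.9% over all probe sets. The 2 that fell were 0 to 3 with 1 array left out. Slc4a2, an anion exchanger that brings in chloride for bicarbonate, averaged 524 ± 62.3 in SMA ceftriaxone, 259 ± 11.5 in SMA vehicle and 639 ± 88.1 in wildtype cords. It fell by 1.25 ± 0.11 (log2, SE) in SMA vehicle against wildtype cords (limma adjusted p = 3.38e-06) and rose by 0.97 in SMA ceftriaxone against SMA vehicle cords (7.56e-05), without overlap in either comparison. Car2, a carbonic anhydrase that is abundant in oligodendrocytes, fell by 0.94 (0.000683) and rose by 0.71 (0.00694) in the same comparisons. Slc4a3 and Slc4a10, relatives found in neurons, instead rose in SMA vehicle against wildtype cords, by 0.72 and 0.61 (0.00055 and 0.000334).

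The sodium-potassium ATPase supplies the gradients on which all these carriers run. Of 7 measured subunits and FXYD regulators, 2 rose and 1 fell in SMA vehicle against wildtype cords, and 2 rose and 2 fell in SMA ceftriaxone against SMA vehicle cords, beside the same shares of all probe sets. Fxyd6 averaged 2473 ± 246 in SMA ceftriaxone, 4299 ± 257 in SMA vehicle and 1467 ± 246 in wildtype cords, so that the SMA ceftriaxone cords stood between. It rose by 1.56 ± 0.11 in SMA vehicle against wildtype cords (limma adjusted p = 1.09e-06) and by 0.76 ± 0.11 in SMA ceftriaxone against wildtype cords (0.00413; 0.0735 with Xist as a covariate). Fxyd1, phospholemman, averaged 824 ± 110.1 in SMA ceftriaxone, 425 ± 107 in SMA vehicle and 865 ± 221 in wildtype cords.

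Of 8 measured GABA-A and glycine receptor genes, through whose channels chloride flows, 4 rose and 1 fell in SMA vehicle against wildtype cords, and 0 rose and 1 fell in SMA ceftriaxone against SMA vehicle cords (limma; 0 and 1 unadjusted). The shares called over all probe sets were 47.2% and 35.9% in these comparisons, and nothing is read from the counts over the 8 genes. Gabra3, a subunit prominent in the developing nervous system, averaged 611 ± 128 in SMA ceftriaxone, 908 ± 147 in SMA vehicle and 383 ± 113 in wildtype cords. It rose by 1.25 ± 0.20 in SMA vehicle against wildtype cords (limma adjusted p = 0.000268) and fell by 0.57 in SMA ceftriaxone against SMA vehicle cords (0.0441), a call that 12 of 23 alternatives kept (adjusted p up to 0.209). Glrb, the glycine receptor beta subunit, fell by 0.37 in SMA vehicle against wildtype cords (0.0162; up to 0.0839 in the 3 alternatives that ended the call), where Gphn, the scaffold gephyrin, rose by 0.32 (0.0178).

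**Figure D5:**
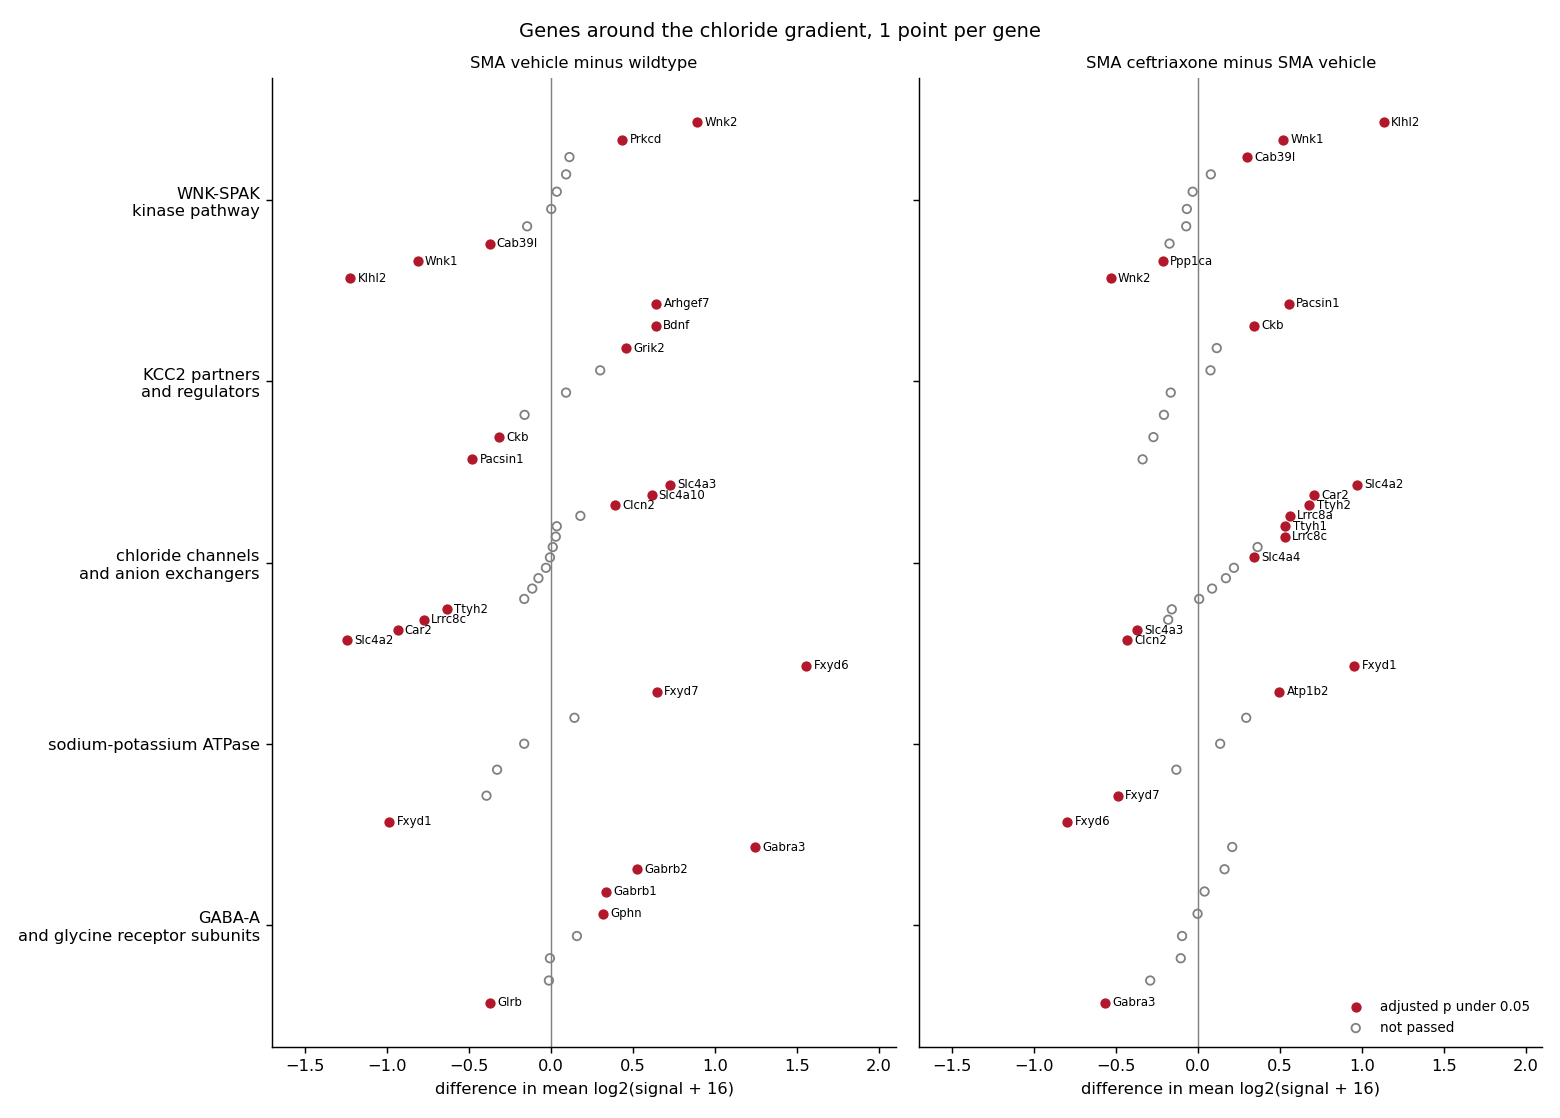
Differences in mean log2(signal + 16) of the measured genes of 5 lists, SMA vehicle minus wildtype and SMA ceftriaxone minus SMA vehicle, 1 point per gene; filled points passed limma's adjusted p under 0.05. Each list holds genes on both sides of 0, with Klhl2 (-1.23), Slc4a2 (-1.25) and Fxyd1 (-0.99) low and Fxyd6 (1.56) and Gabra3 (1.25) high in SMA vehicle cords; labelled genes not named in the text were chosen after their values were seen.

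Of the rest of the family, 4 genes had a probe set. Slc12a9, an orphan relative, had mean signals of 667 ± 47.7 in SMA ceftriaxone, 529 ± 108 in SMA vehicle and 505 ± 108 in wildtype cords. Its difference of SMA ceftriaxone from SMA vehicle cords was 0.34 (limma adjusted p = 0.114, and 0.0332 without wildtype array 2), and from wildtype cords 0.41 (0.171). Slc12a1 and Slc12a3, the NKCC2 and NCC carriers of the kidney, and Slc12a8 were below the filter, with signals of at most 32.1 and no difference that passed.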

How the data were processed

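Spinal cord RNA was measured on 12 one-colour arrays, and the members, gene lists and tests were chosen with earlier results of these data known. The authors deposited a MAS5 signal intensity for each probe set, per the submitters' processing notes (version not given in the sources used here), and each array had a trimmed mean of about 700.2. Of 22690 probe sets, 64 controls were removed; of all, 20393 had 1 gene symbol in the platform annotation, 691 several and 1606 none, and 20364 matched RefSeq. Signals were analysed as log2(signal + 16), which understates changes of dim genes, and the 13575 probe sets above the 40th percentile of mean log2 signal were tested. limma 3.58.1 in R 4.3.3 was fitted to all 3 groups (lmFit, eBayes with trend) with Benjamini-Hochberg adjustment; members below the filter take values from the same fit on all 22626 probe sets. The fit was also run on simulated data with independent noise and changes of known size. Those data held no outlying array, so that run checks the code and not the results. Array number limits the precision: the labels give separate samples but no pooling, litter or sex, so p-values measure the spread between these samples. Comparisons share arrays, so SMA ceftriaxone against SMA vehicle is not independent of the contrast on which Slc12a2 was chosen.

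Named genes were all member probe sets, the other Slc12 genes, Smn1, up to 4 genes of smallest p per comparison in each chloride list and up to 3 in each cell type list, and the 5 closest to each member by Pearson r. Other names were chosen after their values were seen, among them Usf2, Stk39, Oxsr1, Mog, Klk6 and Ttr. A gene in a list is represented by its probe set of highest mean signal. Alternatives changed the offset (1, 64), scaling (quantile, median), filter (none, 60th percentile), trend, array weights, groups fitted, replicate block and an Xist covariate, and left out each array in turn.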

Additional observations from a re-analysis of the deposited data

Results flagged for a closer look

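Over 102 groups of 4 arrays, 9 had 1 array apart from the others by Dixon's ratio of the gap to the range (at or above 0.829). Groups of 4 drawn at random give about 1 in 20. Many of these probe sets were picked for following a member over the same arrays, so the 9 cannot be set against that rate. For Slc12a4, SMA ceftriaxone array 4 lay low (327.7 against 389.7 to 403.8; ratio 0.829). For Slc12a5 by its dimmer probe set, wildtype array 1 lay high (812.3 against 534.4 to 573; ratio 0.834). Wildtype array 2, the array with thymus genes, stood apart in 5 of the 9: high for Slc12a3 (24.4 against 6.5 to 7.3; ratio 0.94), Srsf11 (2633.3 against 1606.3 to 1738.9; 0.84) and Snrpb (3208.7 against 1668.9 to 1813.1; 0.873), and low for Chn2 (1460.5 against 2236.4 to 2312.4; 0.927) and Adamts4 (1925.4 against 2875.6 to 3036; 0.881). SMA vehicle array 4 lay high for Smn1 at a signal near 0 (5.7 against 3.6 to 3.9; 0.851), and SMA vehicle array 2 low for Chga (2483.8 against 2655 to 2656.6; 0.991).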

How the results depend on the processing

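Under 23 alternatives, the 3 Slc12a2 differences of SMA vehicle from wildtype cords stayed between -1.72 and -1.35, and no result changed sign while past the threshold. Of 606 values of members and of counts of calls, 586 were classed as unchanged, 17 became weaker and 3 stronger. For tested members, unchanged meant the same side of the threshold, and the sign could differ where neither fit passed. For untested values it meant a shift smaller than the residual SD of the main fit. For counts of calls it meant staying within 1.5 times the reported count. Slc12a5 by its dimmer probe set, in SMA ceftriaxone against SMA vehicle cords, was -0.43 with no filter (limma adjusted p = 0.0572) and -0.45 with the Xist covariate (0.0745), and -0.51 to -0.35 with 1 array left out; the cause was not tested. Slc12a7 by its brighter probe set, in SMA ceftriaxone against wildtype cords, was -0.11 to 0.95 with 1 array left out, the highest without wildtype array 2. The count of probe sets called in SMA ceftriaxone against wildtype cords was 572; it was 236 with median centring, 1826 with array weights, 111 with only these groups fitted, 344 with the replicate block and 53 with the Xist covariate, and 164 (without SMA ceftriaxone array 3) to 1436 (without wildtype array 2) with 1 array left out. Same-numbered arrays had correlated deviations of -0.14 to 0.13, with 2 of 12 pairs over 0.1, so the numbers do not pair the samples; with the replicate block the Slc12a4 difference of SMA ceftriaxone from SMA vehicle cords was 0.71 (adjusted p = 0.00354). Slc12a4 is not kept by the 60th percentile filter, and has no value there. Among 5646 values of named genes 5376 were unchanged in the sense used for tested members, 205 became weaker and 65 stronger. Of 2070 counts over gene lists, 1911 stayed within 1.5 times the reported count, 123 were lower and 36 higher. Signals below the filter, those of Slc12a7 among them, lie where background sets much of the value.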
